A study of Mus musculus with 6 samples.

Results

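The kinases examined here are the myotonic dystrophy kinase-related Cdc42-binding kinases (MRCKs) Cdc42bpa, Cdc42bpb and Cdc42bpg, the ROCK kinases (ROCKs) Rock1 and Rock2, and their relatives Dmpk and Cit. These 7 genes, of 27179 in the count table, were chosen by symbol, and the set was picked because Cdc42bpg had stood out when CD34 negative and CD34 positive cells were compared. The measured difference of the members between those groups is therefore a description without a test. Bulk RNA sequencing was done on cancer-associated fibroblasts (CAFs) from 3 mammary tumors of female raGFP-Wnt1 mice. In these mice, which arose from a cross between an FVB/NJ and a C57BL/6 line, Pdgfra drives a nuclear GFP from 1 knock-in allele and the mammary tumor virus promoter drives Wnt1, and all libraries share both alleles. GFP-positive CAFs of each tumor were sorted into a CD34 negative and a CD34 positive fraction, which gave 3 libraries per group. The age of the mice is not given in the sources used here, and the fractions rest on GFP, so only cells in which Pdgfra was active could be collected. A library is named by its fraction and the number of its tumor, as in negative library 1.

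MRCKs and ROCKs are serine/threonine kinases that drive actomyosin contraction. ROCKs are switched on by GTP-bound RhoA and MRCKs bind GTP-bound Cdc42, and both phosphorylate the regulatory light chain of myosin II, the myosin phosphatase subunit encoded by Ppp1r12a, and the LIM kinases that inactivate cofilin. Dmpk is the kinase of the same family best known from muscle and myotonic dystrophy, and citron kinase, encoded by Cit, acts at the midbody in cytokinesis. In fibroblasts, ROCK and MRCK activity is known for stress fibers, contraction and matrix remodeling.

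The members lie apart in the genome. In the RefSeq annotation of GRCm38.p6, Cdc42bpg lies at chr19:6306253-6325653, Cdc42bpa at chr1:179960079-180165606 and Cdc42bpb at chr12:111292972-111379313. Rock2 lies at chr12:16894978-16988274, Dmpk at chr7:19083646-19093821 and Cit at chr5:115845224-116008953. All 7 members are protein-coding genes. The coding stretch around the catalytic loop of the kinase domain is shown for 6 of them because it is among the most conserved parts of the family, and so shows how far reads of paralogs can be told apart. Capitals mark the 24 bases that encode the catalytic loop, within 96 coding bases read from GENCODE transcripts of GRCm38, 5′ to 3′ on the coding strand. The stretches lie at chr1:180040160-180061844 (plus strand), chr12:111329178-111336066 (minus), chr19:6310326-6310849 (plus), chr12:16942829-16942924 (plus), chr7:19087001-19087294 (plus) and chr5:115873954-115875943 (plus), and all but that of Rock2 span 1 intron.
Cdc42bpa: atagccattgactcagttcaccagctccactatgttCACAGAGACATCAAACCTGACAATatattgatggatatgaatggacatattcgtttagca
Cdc42bpb: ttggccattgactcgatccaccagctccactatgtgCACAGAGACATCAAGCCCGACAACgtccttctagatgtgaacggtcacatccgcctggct
Cdc42bpg: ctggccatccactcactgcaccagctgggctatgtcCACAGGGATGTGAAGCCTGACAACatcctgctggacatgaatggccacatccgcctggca
Rock2: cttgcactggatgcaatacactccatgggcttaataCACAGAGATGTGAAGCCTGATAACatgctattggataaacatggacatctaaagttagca
Dmpk: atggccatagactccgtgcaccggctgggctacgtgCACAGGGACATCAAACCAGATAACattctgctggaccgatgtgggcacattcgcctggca
Cit: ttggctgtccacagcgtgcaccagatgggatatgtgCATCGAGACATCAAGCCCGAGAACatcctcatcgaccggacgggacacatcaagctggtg
Even over this conserved stretch, Cdc42bpg shared 77.1% of bases with Dmpk, 76.0% with Cdc42bpb, 72.9% with Cdc42bpa and 63.5% with Rock2. The closest pair was Rock1 and Rock2, at 84.4% with a longest shared run of 26 bases. The longest run of identical bases between any annotated transcripts of 2 members was 27 bases, for Cdc42bpa with Rock2 and for Rock2 with Cit. Between Cdc42bpg and any other member it was 20 bases, with Cdc42bpb. The read length and the treatment of reads with several matches are not given in the sources used here.

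The 6 libraries held 16238059 to 86609267 counts, and between 14314 genes with counts in negative library 3 and 19220 in negative library 1. A chi-square statistic per gene between libraries of 1 group lay between 133 and 239, so none was a repeat of another. Of the 27179 genes, 14855 passed the filter on low counts, and so did all 7 members, whose counts ranged from 39 for Cit in positive library 1 to 21903 for Rock2 in positive library 2. Cd34, the sorted marker, was at 42.0 to 102 CPM, counts scaled to library size and TMM factor, in negative and 563 to 1605 CPM in positive libraries. Sums of cell type markers, here and below, were scaled by library total alone, except for the endothelial sum. Summed fibroblast markers held 69698 to 88278 CPM in negative and 76803 to 96471 CPM in positive libraries, against 12.9 to 17.1 and 6.65 to 19.6 CPM for immune markers. Of the 8 fibroblast markers, 2 were higher and 4 lower in the negative library of all 3 tumors. In the fit with the tumor as a block, used below, Dcn (log2 fold change -1.12) and Lum (-0.73) were called lower and 0 were called higher. Skeletal muscle markers, of interest because of Dmpk, held at most 7.51 CPM in any library.

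Cdc42bpg was the member that separated the fractions. This gene encodes MRCK gamma, an MRCK beside MRCK alpha (Cdc42bpa) and MRCK beta (Cdc42bpb). Its level was 89.1, 69.9 and 99.1 CPM in negative libraries 1, 2 and 3, and 32.9, 22.9 and 19.1 CPM in positive libraries 1, 2 and 3. The lowest negative library was thus well above the highest positive library. The means were 86.0 ± 14.8 and 25.0 ± 7.14 CPM (SD, n = 3), a ratio of 3.44. The fitted log2 fold change, negative against positive, was 1.87 ± 0.23 (SE), and within tumors 1, 2 and 3 the log2 ratios were 1.44, 1.61 and 2.37. In bulk samples, more cells that express a gene and more RNA of it per cell cannot be told apart.

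**Figure D1:**
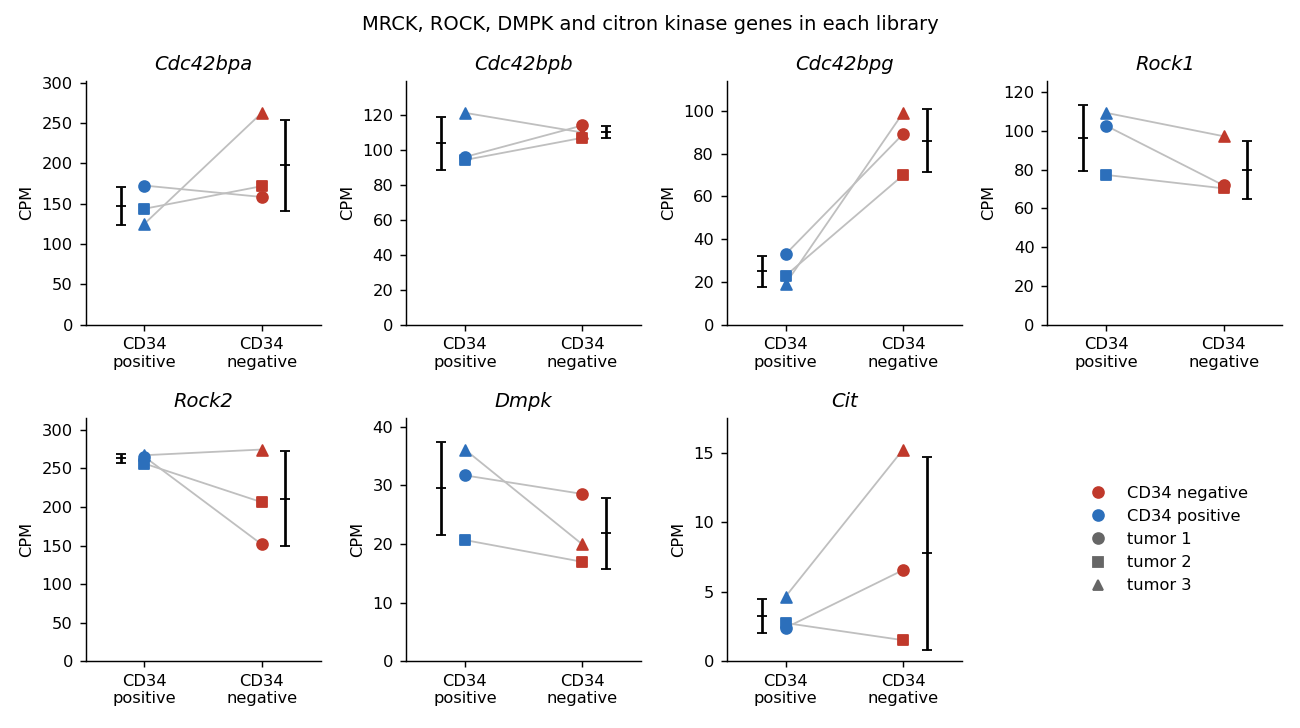
CPM of the 7 members (vertical axis of each panel, starting at 0) in CD34 positive (blue) and CD34 negative (red) libraries, with grey lines joining libraries of 1 tumor and black marks giving the mean ± SD (n = 3). Cdc42bpg lies at 69.9 to 99.1 CPM in negative and 19.1 to 32.9 CPM in positive libraries, whereas the groups of the other 6 genes overlap.

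No other member had groups that did not overlap. Among all tested genes, 10.4% had every negative library above every positive library, and 10.0% the reverse, against 1 and 0 of the 7 members. With a threshold of 0.05 on the adjusted p of limma-voom, 0.121% of tested genes were called between the fractions, and 8.57% with the tumor as a block, 4.32% higher and 4.25% lower in CD34 negative CAFs. Cdc42bpg was the 1 member called in each of these fits, which follows from how the set was picked. Of the 18 genes called without the block, 3 were higher in CD34 negative CAFs. These were Phlda3, Cdc42bpg and Ptprv, with log2 fold changes of 1.43, 1.87 and 2.55, and just outside the threshold stood Arap2 with 2.55. Without the block, Cdc42bpg was not called by edgeR (log2 fold change 1.79), nor in the fits without positive library 2 (1.83) or 3 (1.74), without negative library 1 (1.83), 2 (2.00) or 3 (1.75), or without tumor 2 (1.97) or 3 (1.58). With the block it was called by all 3 tools and without each tumor, at 1.53 to 1.93. Across these fits its fold change thus moved less than its call.

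The other MRCK genes had levels that were closer between the fractions. Cdc42bpa stood at 158, 172 and 262 CPM in negative libraries 1, 2 and 3 and at 172, 144 and 125 CPM in positive libraries 1, 2 and 3. Its highest value, in negative library 3, set the mean of the negative group, at 197 ± 56.7 against 147 ± 23.9 CPM (SD, n = 3). The log2 fold change was 0.41 ± 0.24 (SE), and 0.04 without tumor 3. With the block and without tumor 1, Cdc42bpa was called, at 0.66. Cdc42bpb had the steadiest level of the family, with 114, 107 and 110 CPM in negative libraries and 96.1, 94.3 and 121 CPM in positive libraries. Its groups overlapped, and its log2 fold change was 0.09 ± 0.17 (SE).

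Both ROCK genes had higher means in CD34 positive CAFs, with overlapping groups. Rock1 was at 71.8, 70.3 and 97.2 CPM in negative libraries 1, 2 and 3 and at 103, 77.2 and 109 CPM in positive libraries 1, 2 and 3. The negative library was below the positive library in all 3 tumors, with log2 ratios of -0.52, -0.14 and -0.17 and a fitted value of -0.27 ± 0.21 (SE). Rock2 was at 151, 206 and 275 CPM in negative libraries and at 265, 256 and 267 CPM in positive libraries. Its positive libraries lay close together, whereas the negative libraries ranged from far below them to slightly above. The log2 ratio was -0.81 in tumor 1, -0.31 in tumor 2 and 0.04 in tumor 3, and the fitted value -0.35 ± 0.23 (SE). With the block and without tumor 3, Rock2 was called, at -0.57.

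Dmpk and Cit were the members with the fewest counts. Dmpk was at 28.5, 17.0 and 19.9 CPM in negative libraries 1, 2 and 3 and at 31.7, 20.7 and 36.1 CPM in positive libraries 1, 2 and 3. It was lower in the negative library of each tumor, by log2 ratios of -0.15, -0.28 and -0.86, with a fitted value of -0.32 ± 0.30 (SE), but its groups overlapped. Cit had the widest spread, at 6.57, 1.53 and 15.2 CPM in negative libraries and 2.41, 2.76 and 4.66 CPM in positive libraries. The negative libraries held both its lowest and its highest value. Its log2 fold change was 0.74 ± 0.84 (SE), and the ratio was 1.43 in tumor 1, -0.85 in tumor 2 and 1.71 in tumor 3. The fitted value was 0.12 without negative library 3, 1.60 without negative library 2 and 0.00 with sample quality weights. Of 6 coding transcripts annotated for Cit, 4 were complete and held the catalytic loop, and the others were incomplete or lacked it. Counts per gene do not separate these forms. For the whole family, the median log2 fold change was 0.09, against -0.03 for all tested genes. Across all tested genes, 22.8% were higher and 23.4% lower in the negative library of all 3 tumors, against 1 and 2 of the 7 members.

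**Figure D2:**
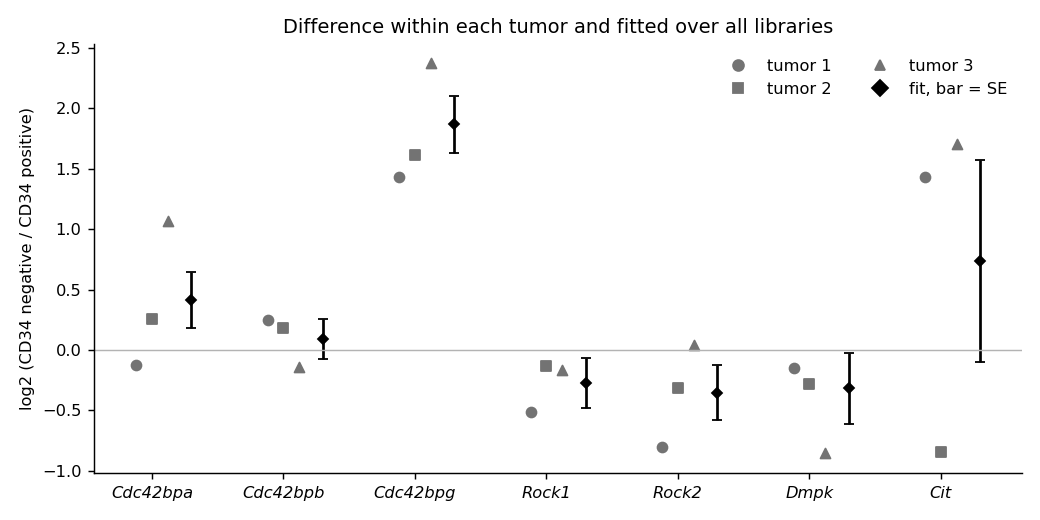
Log2 ratio of CD34 negative over CD34 positive CAFs (vertical axis) within tumor 1 (circles), 2 (squares) and 3 (triangles) for each member, with the fitted log2 fold change and its SE in black. Cdc42bpg lies between 1.44 and 2.37 in the 3 tumors, Rock1 and Dmpk lie below 0 in all 3, and the other members have ratios on both sides of 0.

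Levels of different genes were compared per length, as CPM per kilobase of the length in the count table. The order by mean over the 6 libraries was Rock2 (29.6 CPM per kilobase), Cdc42bpa (19.9), Cdc42bpb (16.0), Rock1 (14.2), Dmpk (9.29), Cdc42bpg (9.26) and Cit (0.801). Rock2 was above Cdc42bpa in 6 of 6 libraries, Cdc42bpa above Cdc42bpb and Cdc42bpb above Rock1 in 5 of 6 each, and Rock1 above Dmpk in 6 of 6. Dmpk was above Cdc42bpg in 3 of 6, the 3 positive libraries, so these neighbours changed places between the fractions. Cdc42bpg had 14.4 ± 2.47 CPM per kilobase in negative and 4.17 ± 1.19 in positive libraries (SD, n = 3). In its range over libraries, from 3.19 to 16.5, it reached the levels of Cdc42bpb in negative library 3. Among all tested genes, the mean level of Rock2 was at the 86.0th percentile, that of Cdc42bpg at the 63.7th and that of Cit at the 18.4th. With the longest complete coding length in place of the length in the table, Rock1 (21.7 CPM per kilobase) came before Cdc42bpb (20.9), while Rock2 (56.9) and Cdc42bpa (32.8) stayed first, and the values of these genes except Cdc42bpb were over 1.5 times those per table length.

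**Figure D3:**
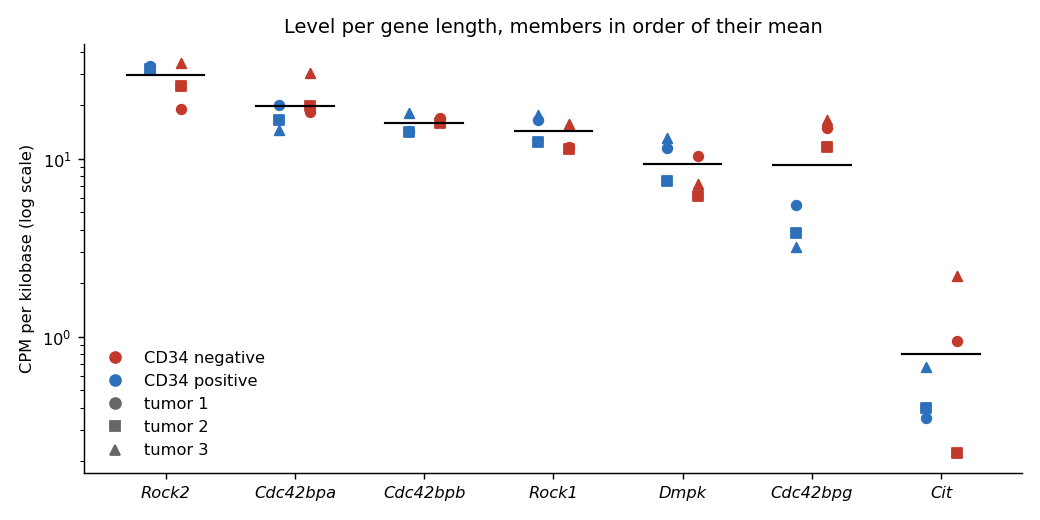
Level of each member in CPM per kilobase (vertical axis, log scale) in the 6 libraries, with symbols for the tumor, red for CD34 negative and blue for CD34 positive CAFs, and a black line at the mean. Rock2 is highest on average at 29.6 and Cit lowest at 0.801, and Cdc42bpg is split by fraction, at 14.4 against 4.17 on average.

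Because Cdc42bpg differed and its paralogs less so, the make-up of the MRCK transcripts differed too. Cdc42bpg supplied 29.7, 24.6 and 26.1% of the summed MRCK level per kilobase in negative libraries 1, 2 and 3, and 13.8, 11.1 and 8.94% in positive libraries 1, 2 and 3. The mean share was 26.8 ± 2.60% and 11.3 ± 2.45% (SD, n = 3), and the groups did not overlap. The summed MRCK level was 53.6 ± 8.45 CPM per kilobase in negative and 36.6 ± 2.75 in positive libraries, with ratios of 1.26, 1.38 and 1.77 in tumors 1, 2 and 3. Of this difference in means, Cdc42bpg held 10.2 CPM per kilobase, Cdc42bpa 5.83 and Cdc42bpb 0.97. The summed ROCK level leaned the other way, at 39.2 ± 9.90 against 48.4 ± 3.45 CPM per kilobase, with ratios of 0.614, 0.834 and 0.980. Rock1 made up 33.4 ± 4.06% of it in negative and 32.0 ± 3.48% in positive libraries. MRCK and ROCK genes together were at 92.8 ± 17.8 and 85.0 ± 5.43 CPM per kilobase (SD, n = 3). All of these shares and sums use the contrast by which the set was picked.

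A difference that was not used to pick the members is that between tumors. It was tested with limma-voom, with fraction and tumor in the design and an F test of the tumor terms, adjusted over all tested genes by Benjamini-Hochberg. In this fit 4.03% of tested genes were called, and 0 of the 7 members, 2 of which had an unadjusted p under 0.05 in voom, as did 21.8% of tested genes. These were Dmpk (adjusted p = 0.177) and Cit (adjusted p = 0.158), and DESeq2 gave 1 such member (Cit) and edgeR 0, with 0 called by either. The tumor means of Cit spanned 2.03 on the log2 scale and those of Dmpk 0.68, against 0.44 for Cdc42bpg, 0.48 for Rock1 and 0.20 for Cdc42bpb. The adjusted p for Cdc42bpg was 0.549 in limma-voom. Single libraries decided some of these results. Without positive library 3, limma-voom called Cdc42bpa (adjusted p = 0.0471), Dmpk (adjusted p = 0.0379) and Cit (adjusted p = 0.0220), when 5180 genes (33.6% of those tested) were called instead of 598. Dmpk was also called without negative library 3 (adjusted p = 0.0323), when 13.7% of all tested genes were. Cit was called without positive library 1 (adjusted p = 0.0365) or 2 (adjusted p = 0.0300), when 6.36% and 4.93% of tested genes were. With 3 tumors of 2 libraries this test has 2 residual degrees of freedom, and 1 when a library is left out, which leaves its tumor with a single library.

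The genes whose pattern over the 6 libraries was most like that of Cdc42bpg were sought by the root mean square (RMS) difference of log2 CPM centred on the mean of each gene. Among the 5 nearest of 14562 genes with a symbol were Cdkn1a (RMS 0.157), Whrn (0.189), Cox6b2 (0.206) and Gas6 (0.215), where Cdc42bpg itself varied about its mean by an RMS of 0.944. Cdkn1a, which encodes the cyclin-dependent kinase inhibitor p21, was at 828, 587 and 816 CPM in negative libraries 1, 2 and 3 and at 369, 225 and 197 CPM in positive libraries 1, 2 and 3. As for Cdc42bpg, negative library 2 was the lowest of its group and positive library 3 the lowest of all. Gas6, the ligand of the Axl receptor family, was at 1446 to 1552 CPM in negative and 421 to 773 CPM in positive libraries, whereas Whrn and Cox6b2 were at no more than 12.6 CPM. The other members differed from Cdc42bpg by an RMS of 0.731 (Cdc42bpa) to 1.19 (Dmpk), and the median over all tested genes was 1.05. This measure includes the difference between fractions by which the set was picked. Genes with a fold change like that of Cdc42bpg therefore come near, and the other members, with smaller ones, lie further away.

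**Figure D4:**
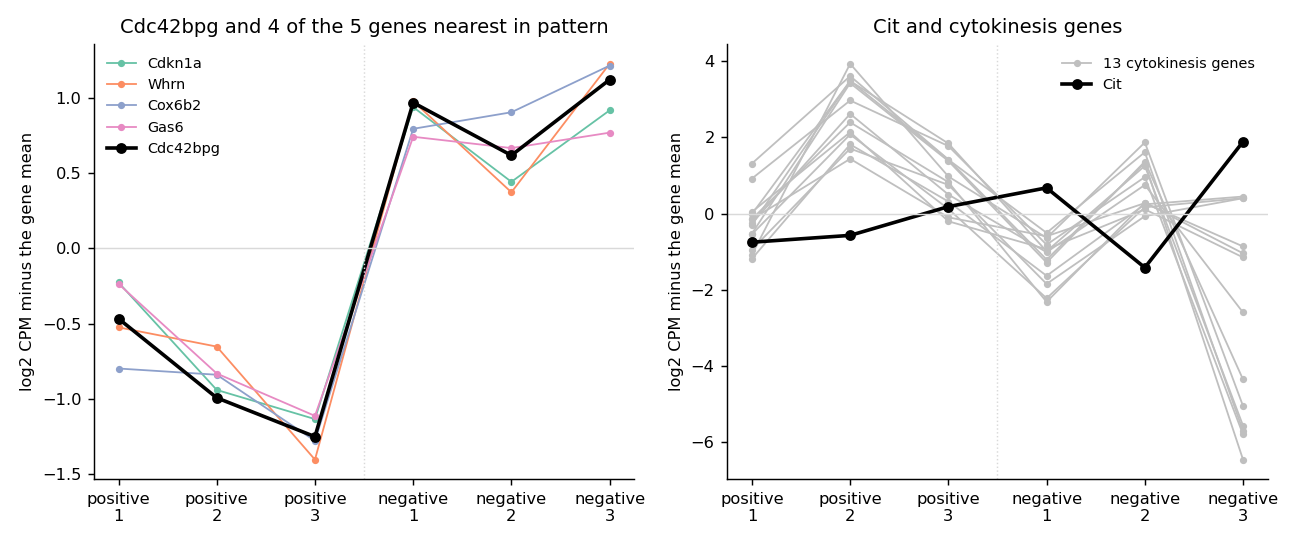
Log2 CPM minus the mean of each gene (vertical axis) in the 6 libraries (horizontal axis, positive libraries left, negative right), for Cdc42bpg with 4 of the 5 genes nearest in pattern (left) and Cit with 13 cytokinesis genes in grey (right). Cdkn1a follows Cdc42bpg most closely, at an RMS of 0.157, whereas Cit is highest in negative library 3, where several cytokinesis genes are lowest.

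Of the genes next to the members, 1 was called, beside Rock2, and only with the block, which called 8.57% of all tested genes. Among genes with a row in the count table, Ehd1 lies 6156 bases from Cdc42bpg and Men1 9325 bases on the other side. Their log2 fold changes were 0.22 ± 0.21 and -0.09 ± 0.25 (SE). Neither was called in limma-voom with the block (adjusted p = 0.522 and 0.795). A lncRNA gene, Gm52380, overlaps Cdc42bpg and had no row of its own. The library kit does not mark strand, so reads of the overlapping pair could not be told apart. Pqlc3, 373 bases from Rock2, was at 74.7, 90.7 and 105 CPM in negative libraries 1, 2 and 3 and at 46.5, 41.3 and 29.7 CPM in positive libraries. It was higher in all 3 tumors and passed the test with the block (log2 fold change 1.24 ± 0.20, adjusted p = 0.0067 in limma-voom) but not without it (adjusted p = 0.0735). Dmpk lies between Dmwd (867 bases away) and Six5 (722 bases away), whose log2 fold changes were 0.25 and 0.53 against -0.32 for Dmpk, and neither was called. The neighbours of Cdc42bpa (Ahctf1 and Psen2), Rock1 (Usp14 and Greb1l) and Cit (Bicdl1 and Prkab1), and E2f6 beside Rock2, had log2 fold changes between -0.23 and 0.43 and were not called in either fit. Beside Cdc42bpb, A230087F16Rik and Lbhd2 held too few counts to be tested, and Coq8a, which overlaps Cdc42bpa, was at 2.98 to 5.86 CPM.

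Partners of the kinases were read from 11 lists of GTPases, regulators, substrates and other effectors, 146 genes in all, of which 140 passed the filter. In limma-voom without the block, 0 of the 140 were called, 40 had an unadjusted p under 0.05, and DESeq2 called 12 and edgeR 0. With the tumor as a block, limma-voom called 30, of which 12 were higher and 18 lower in CD34 negative CAFs, or 21.4% of the genes against 8.57% of all tested genes. The lists were chosen with earlier results of these data known, so these shares describe the lists and do not test them. Of these 30, edgeR with the block called 10 and DESeq2 with the block 29, and 14 were called in the fits without each of the 3 tumors. The 8 genes that met all of these were Rnd3, Arhgef17, Arhgef40, Arhgap10, Arhgap18, Srgap1, Mylk and Anln. Tumor 2 decided the most calls. Without it Rnd1, Ect2, Fgd6, Arhgap29, Stard13, Gem, Limk2, Diaph3, Cdc42ep1, Cdc42ep4, Pard6g, Prc1 and Birc5 were not called. Without tumor 1, Arhgef3, Ect2, Fgd6, Dock10 and Cdc42ep1 were not called, and without tumor 3, Arhgap29, Limk2 and Marcks. The fold changes of all 30 kept their sign in these fits. Fold changes of partner genes below are log2 values from limma-voom with the block, with SE and Benjamini-Hochberg adjusted p.

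The GTPases that bind these kinases most directly were not called. Rhoa, the activator of ROCKs, was at 334 to 488 CPM in negative and 405 to 535 CPM in positive libraries (-0.15 ± 0.12, adjusted p = 0.534). Cdc42, which MRCKs bind, was at 351 to 448 and 410 to 466 CPM (-0.14 ± 0.12, adjusted p = 0.552). Of 12 GTPase genes, 2 fell in CD34 negative CAFs and 0 rose. Rnd3, a GTPase without GTP hydrolysis that binds and inhibits ROCK1, was at 210, 182 and 158 CPM in negative libraries 1, 2 and 3 and at 359, 290 and 347 CPM in positive libraries 1, 2 and 3. Every negative library was below every positive one (-0.86 ± 0.14, adjusted p = 0.00595). Its relative Rnd1 fell by 1.39 ± 0.32 (adjusted p = 0.0302), from a lower level of 4.83 to 17.7 CPM in positive libraries.

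Among 26 exchange factors, which load these GTPases with GTP, 3 rose and 4 fell with the block. Arhgef17, which acts on RhoA, rose from 42.6 to 63.6 CPM in positive to 90.8 to 126 CPM in negative libraries (1.09 ± 0.17, adjusted p = 0.0061). Arhgef40 (0.79 ± 0.13) and Fgd6 (1.24 ± 0.30), a Cdc42 exchange factor, rose too. Arhgef3 (-1.22), Dock11 (-1.09), Dock10 (-0.82) and Ect2 (-1.72), the exchange factor of the cytokinetic furrow, fell. Among 18 GTPase-activating proteins, which switch them off, 1 rose and 4 fell. Srgap1 fell from 27.6 to 56.3 CPM in positive to 8.50 to 20.4 CPM in negative libraries (-1.44 ± 0.19, adjusted p = 0.00281), followed by Arhgap18 (-1.16), Arhgap10 (-0.92) and Arhgap29 (-0.51). Stard13 rose (0.91 ± 0.22), although its groups overlapped. The median was 0.13 for the exchange factors and -0.19 for the GTPase-activating proteins, against -0.01 for all tested genes.

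Of 9 tested adaptors and inhibitors that bind ROCK or MRCK, 1 rose and 3 fell with the block, Rnd3 among them. Shroom3, which recruits ROCK to apical junctions of epithelial cells, was at 19.6, 33.6 and 21.0 CPM in negative and 8.17, 13.9 and 2.33 CPM in positive libraries 1, 2 and 3 (1.52 ± 0.31, adjusted p = 0.0165). Gem, a small GTPase that inhibits ROCK1, fell by 0.56 ± 0.12 (adjusted p = 0.0234), at 415 ± 176 against 601 ± 207 CPM (SD, n = 3), with groups that overlapped. Lurap1l, a relative of the MRCK adaptor Lurap1, fell by 1.76 ± 0.39 (adjusted p = 0.0231). Beside Shroom3, summed epithelial markers held 66.6 to 185 CPM in negative and 23.0 to 164 CPM in positive libraries, with 0 of 10 markers called. The sum was nevertheless higher in the negative library of each tumor, at 185 against 164, 171 against 110 and 66.6 against 23.0 CPM in tumors 1, 2 and 3. Of the 10 markers, 7 were higher in all 3 tumors, with a median of 0.62 on the log2 scale with the block. Epithelial markers thus leaned in the direction of Shroom3, and their part in its level was not tested.

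Targets of the kinases were mixed. Of 9 myosin II chains, 2 rose and 0 fell. Myh9, the main nonmuscle heavy chain, was at 605, 1234 and 1116 CPM in negative and 296, 880 and 430 CPM in positive libraries 1, 2 and 3 (0.97 ± 0.17, adjusted p = 0.00908), and the light chain gene Myl12a was at 203 to 281 and 124 to 181 CPM (0.73 ± 0.14, adjusted p = 0.0141). The groups overlapped for Myh9 but not for Myl12a. Myl9, the smooth muscle light chain that ROCK and MRCK phosphorylate, was at 56.4, 74.2 and 91.8 CPM in negative and 57.6, 52.3 and 29.3 CPM in positive libraries and was not called (0.72 ± 0.26, adjusted p = 0.129). Of 5 tested genes for myosin phosphatase and its inhibitors, 0 were called, and Ppp1r12a was at 72.4 ± 11.8 and 94.2 ± 24.1 CPM (SD, n = 3; adjusted p = 0.265). Of 10 LIM kinase and cofilin genes, Limk2 was the 1 called (0.85 ± 0.22, adjusted p = 0.0417), whereas Limk1 (-0.02 ± 0.17) and Cfl1 (-0.08 ± 0.13) were not. Of 8 other substrates, Marcks, a membrane-bound actin crosslinker, fell (-0.62 ± 0.15, adjusted p = 0.0374). Among 9 other kinases of the myosin light chain, Mylk, the calmodulin-dependent kinase, was the 1 called (1.78 ± 0.27, adjusted p = 0.00494), at 151, 68.6 and 74.9 CPM in negative and 63.6, 22.3 and 8.75 CPM in positive libraries.

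Of 23 tested other effectors of RhoA or Cdc42, 3 rose and 2 fell. The Cdc42 effectors Cdc42ep1 (0.93 ± 0.22) and Cdc42ep4 (0.83 ± 0.15) and the polarity gene Pard6g (0.80 ± 0.18) rose, with means of 25.7, 59.8 and 42.8 CPM in negative and 12.7, 33.8 and 24.8 CPM in positive libraries. Iqgap2, a scaffold that binds Cdc42, fell from 25.6 to 65.6 CPM in positive to 16.9 to 19.4 CPM in negative libraries (-1.36 ± 0.25, adjusted p = 0.0125). Diaph3, a formin of dividing cells, fell by 2.42 ± 0.47 (adjusted p = 0.0146). The list with the lowest median was cytokinesis, the process in which citron kinase acts, at -1.99 over 13 genes. Of these, 4 fell (Anln, Prc1, Birc5 and Ect2) and 0 rose. In negative library 3, Kif14, Cep55 and Aurkb, the gene at the median, had 0 counts, and Kif23, Prc1 and Plk1 had 1. The fold changes of these genes thus rest in part on counts at the floor. Kif20a and Racgap1 had 306 and 478 counts there. Anln, the actin- and myosin-binding scaffold anillin, was at 1.66, 10.1 and 4.02 CPM in negative and 7.49, 43.8 and 14.7 CPM in positive libraries 1, 2 and 3 (-2.07 ± 0.26, adjusted p = 0.00227). Cit was not arranged like these partners. The 13 genes summed to 19.4, 70.2 and 35.7 CPM in negative and 44.9, 262 and 80.1 CPM in positive libraries 1, 2 and 3, so that the highest sum was in positive library 2, where Cit was at 2.76 CPM, whereas Cit was highest in negative library 3.

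**Figure D5:**
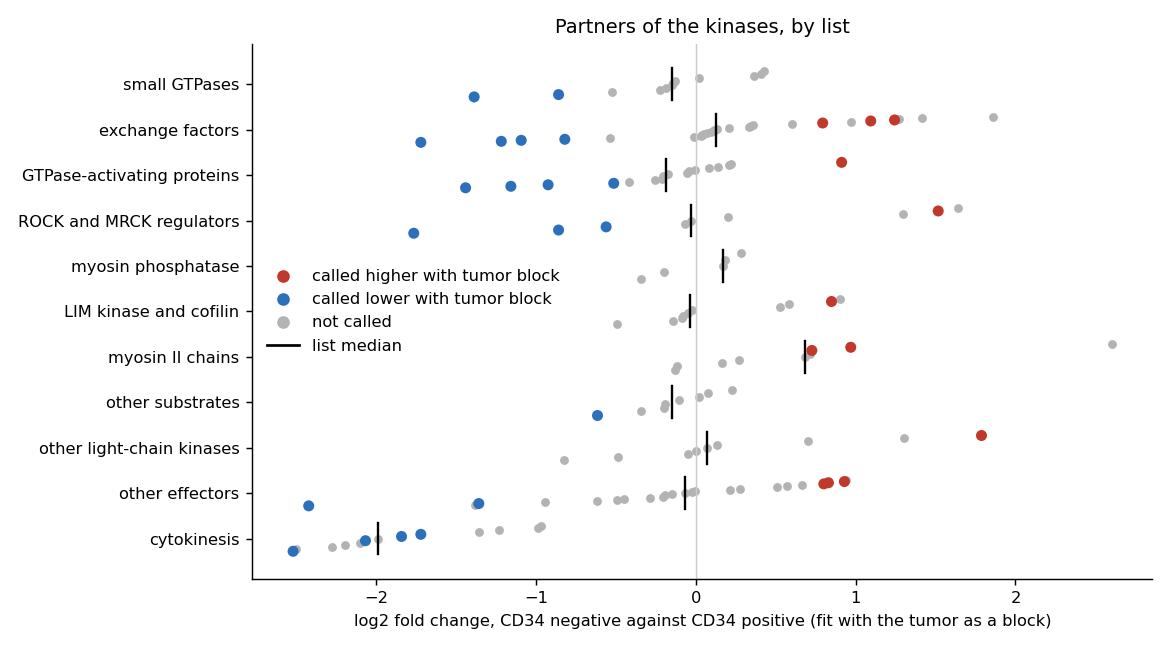
Log2 fold change of CD34 negative against CD34 positive CAFs (horizontal axis, limma-voom with the tumor as a block) for the 140 tested partner genes in 11 lists (vertical axis), with called genes in red (higher) and blue (lower), other genes in grey and a black line at the median of each list. Medians lie near 0 for most lists, at 0.68 for myosin II chains and at -1.99 for cytokinesis genes.

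Markers of mural cells, the contractile pericytes and smooth muscle cells of vessels, leaned toward CD34 negative CAFs. Of 8 markers, 6 were higher and 2 lower in the negative library of all 3 tumors, with a median of 1.98 on the log2 scale with the block. The 8 markers summed to 208 to 256 CPM in negative and 87.8 to 195 CPM in positive libraries, without overlap, and 6 of the 8 were called with the block, 4 higher and 2 lower. Notch3 (51.8 to 56.0 against 10.1 to 31.9 CPM), Cspg4 (84.5 to 129 against 12.9 to 44.0 CPM) and Mcam (34.6 to 45.6 against 3.99 to 16.4 CPM) were higher in negative libraries, as was Des. Rgs5, a pericyte marker, was at 3.72 to 10.7 against 0.25 to 1.18 CPM, and was not called, whereas the pericyte genes Kcnj8 and Abcc9 were lower, at 1.70 to 28.3 CPM in negative and 5.38 to 87.8 CPM in positive libraries. None of the 8 was at 0 in all libraries. The part of mural cells in the levels of Cdc42bpg, Mylk, Myh9 and the other genes higher in CD34 negative CAFs was not tested. Of 7 tested endothelial markers, Tek was the 1 called, and it was lower in negative libraries, at 5.45 to 13.4 against 48.8 to 116 CPM. The other 6 summed, with the TMM factor, to 9.37 to 20.9 CPM in negative and 6.95 to 29.8 CPM in positive libraries. The median over the 7 was 1.45 on the log2 scale with the block, but 2 were higher and 2 lower in all 3 tumors. Emcn and Tie1 held no more than 1.91 CPM in any library.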

How the data were processed

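Reads were aligned to GRCm38/mm10 and counted per NCBI gene by the authors with Rsubread featureCounts, and the deposited values are raw counts per gene, with replicates kept apart. Libraries were made with a TruSeq RNA v2 kit from total RNA and described by the labels as poly(A) RNA, and sequenced on a NextSeq 500. Strand and multi-mapping settings are not given in the sources used here. The sequencing depth was 16238059 to 86609267 counts, and CPM values are counts scaled by library total and TMM factor. The sums of fibroblast, immune, skeletal muscle, epithelial and mural markers are the exception and were scaled by library total alone. Groups and tumor numbers came from the sample titles.

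The study's methods name filterByExpr, TMM and voom with limma, and state neither a minimum count nor whether the tumor entered the design. Here genes were filtered with filterByExpr (minimum count 10) and tested with TMM and limma-voom without a term for the tumor, two-sided, with Benjamini-Hochberg adjustment and a threshold of 0.05. The study's list of genes higher in CD34 negative CAFs is longer than the 3 genes that this fit called higher. With the tumor as a block, 642 genes were called higher. R 4.3.3, limma 3.58.1, edgeR 4.0.16 and DESeq2 1.42.0 were used. Both fractions of a pair came from 1 tumor, which pairs the libraries. Deviations from the group means correlated at 0.373, 0.350 and 0.219 in tumors 1, 2 and 3. The tumor as a replicate block was therefore an alternative fit, calling 30 partner genes in place of 0. Other alternatives were the normalization, the filter, the tool (DESeq2, the edgeR quasi-likelihood test, voom with sample quality weights, or limma-trend, prior count 2), symbol-only genes, and leaving out libraries or tumors. The scripts were tested on simulated data.

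The members, lists and markers were chosen with earlier results of these data known. Named genes are the members, the 5 genes most like Cdc42bpg (1 of which is not reported here), the nearest gene with a row in the count table on each side of a member, up to 4 called genes per direction and list, and Rhoa, Cdc42, Rnd3, Ppp1r12a, Limk1, Limk2, Cfl1, Myl9, Myh9 and Mylk. The threshold neighbours and marker genes were named beyond this rule. RefSeq positions on GRCm38.p6 were joined by gene identifier. Coding lengths, catalytic loop stretches and shared runs came from GENCODE transcripts of the same build. The loop was found by translating complete coding sequences. RefSeq promoter windows were not used here.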

Additional observations from a re-analysis of the deposited data

How the results depend on the processing

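The log2 fold change of each member kept its sign in all 24 alternatives and moved by less than the SD of its within-tumor ratios. Cdc42bpg ranged from 1.53 to 2.00, Cdc42bpa from 0.04 to 0.67, Cdc42bpb from 0.02 to 0.21, Rock1 from -0.44 to -0.14, Rock2 from -0.57 to -0.14, Dmpk from -0.67 to -0.12 and Cit from 0.00 to 1.63. The number of genes called between the fractions was 18, and 32 with library totals alone, 9 with edgeR, 161 with sample quality weights and 698 with DESeq2. With the tumor as a replicate block it was 1273, with edgeR 575 and with DESeq2 1733, and 1134, 851 and 2019 without tumors 1, 2 and 3. Leaving out a library or a tumor without the block gave 0 to 86. Of the partner genes, 0 were called without the block (40 at an unadjusted p under 0.05), 12 with DESeq2, and 0 to 1 when a library or tumor was left out. With the block 30 were called, with edgeR 10 and with DESeq2 36, and 29, 20 and 39 without tumors 1, 2 and 3. Between tumors, 598 genes were called, 167 with edgeR, 1534 with DESeq2 and 686 to 5180 with a library left out. The cause of these changes was not tested. Cdc42bpg kept its sign but not its call without the block. Fits that leave out a library keep fewer residual degrees of freedom. Cit had the fewest counts of the members, at 39 in positive library 1, the smallest library. Without that library its log2 fold change was 0.69, against 0.12 without negative library 3 and 1.60 without negative library 2.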
